A study of Mus musculus with 6 samples.

Results

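The collagen genes were followed between freshly sorted and cultured muscle satellite cells. They were taken as every gene whose symbol in the platform annotation is Col, a number, a and a number, on probe sets given to a single gene, with the brightest probe set kept per gene. This gave 44 genes of the 19938 measured, on 46 probe sets. Fresh and cultured cells had 3 arrays each, 6 in all, so n = 3 for each group mean, and levels are log2 values. Satellite cells, the stem cells of skeletal muscle, were sorted from muscles of hind limb, abdomen and triceps of C57BL/6J mice aged 2 months. The sort kept cells with beta-1 integrin and CXCR4 and without CD45, CD31, CD11b, Ter119 and Sca1. Cultured cells had been sorted into wells coated with collagen type 1 at 1 ug/ml and laminin at 10 ug/ml, and grown for 5 days in F10 medium with 20% horse serum and daily bFGF (basic fibroblast growth factor) at 5 ng/ml. No genotype or transgene is named for any group. The labels name 3 mice and do not tie an array to a mouse, so p-values measure the spread between these arrays, which may be partly technical.

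Collagens are triple-helical proteins of the extracellular matrix, each molecule built from 3 alpha chains. Fibrillar collagens form the fibres of tendon and interstitial tissue, and collagen IV forms the sheet of the basement membrane that encloses each muscle fibre with its satellite cells. Collagen VI forms beaded microfilaments around that sheet, and FACIT collagens (fibril-associated collagens with interrupted triple helices) decorate the fibres. In muscle most interstitial collagen is made by fibro-adipogenic cells, and satellite cells are known to make collagens V and VI themselves. Collagen V is known as a ligand of the calcitonin receptor that keeps satellite cells quiescent.

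Of the 44 collagen genes, 2 fell and 1 rose in the cultured cells. The 2 that fell were Col6a1, a chain of the microfibrillar collagen VI, by 1.32 ± 0.22 (SE) on the log2 scale, and Col3a1, the chain of the fibrillar collagen III, by 1.08 ± 0.18. The 1 that rose was Col18a1, whose product in basement membranes carries the endostatin fragment, at 0.74 ± 0.15. The other 41 did not pass the test, among them all 6 genes of collagen IV, all 9 FACIT genes and both genes of collagen I. The share past the test was 6.82% of the collagen genes, beside a background of 4.32% of all 19938 genes (limma, Benjamini-Hochberg adjusted p under 0.05 over all genes). The share lower was 2 of 44 against 3.37% of all genes, and the share higher 1 of 44 against 0.953%. The median difference of the 44 genes was 0.05, beside 0.04 for all genes. The groups did not overlap for 11 of the 44 genes, 25% beside 23.2% of all genes, 5 of them lower beside 10.3% of all genes and 6 higher beside 12.9%. With cyclic loess the collagen median was -0.01. Shares this near the background are no result about the collagen genes as a set.

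The promoters of the 3 genes that passed are shown with that of Col6a2, a partner chain that did not pass. Each line gives the 250 bases before a RefSeq start site (GRCm38.p6), 5′ to 3′ on the strand of the gene. Capitals mark matches to the AP-1 motif TGANTCA, the RBPJ motif GTGGGAA, the GC box GGGCGG or CCAAT, on either strand. Col6a1 lies at chr10:76726045-76726294 on the minus strand.
Col6a1: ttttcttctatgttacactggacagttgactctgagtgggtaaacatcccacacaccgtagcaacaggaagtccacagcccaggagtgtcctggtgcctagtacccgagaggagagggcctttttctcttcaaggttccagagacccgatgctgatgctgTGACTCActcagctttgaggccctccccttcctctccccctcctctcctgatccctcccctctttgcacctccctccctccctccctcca
Col6a2 lies at chr10:76623405-76623654 on the minus strand, at the first of 2 start sites listed.
Col6a2: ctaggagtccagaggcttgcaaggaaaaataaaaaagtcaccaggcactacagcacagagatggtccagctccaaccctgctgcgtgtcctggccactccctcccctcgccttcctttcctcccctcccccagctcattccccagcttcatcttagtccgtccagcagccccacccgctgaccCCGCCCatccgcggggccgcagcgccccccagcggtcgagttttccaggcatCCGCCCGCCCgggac
Col3a1 lies at chr1:45311288-45311537 on the plus strand.
Col3a1: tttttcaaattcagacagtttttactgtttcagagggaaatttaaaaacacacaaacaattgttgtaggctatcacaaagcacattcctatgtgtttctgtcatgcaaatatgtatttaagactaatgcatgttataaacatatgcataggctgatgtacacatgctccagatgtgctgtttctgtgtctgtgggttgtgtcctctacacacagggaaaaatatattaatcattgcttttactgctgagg
Col18a1 lies at chr10:77166531-77166780 on the minus strand, at the first of 2 start sites listed.
Col18a1: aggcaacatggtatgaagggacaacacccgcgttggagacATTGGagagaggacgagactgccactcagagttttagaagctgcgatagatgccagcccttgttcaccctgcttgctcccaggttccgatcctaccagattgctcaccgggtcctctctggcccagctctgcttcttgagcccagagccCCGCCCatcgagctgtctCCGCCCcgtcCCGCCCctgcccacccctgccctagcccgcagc

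Of the 44 collagen genes, 35 had a promoter in the RefSeq table, with 38 start sites in all. AP-1 is a dimer of Fos and Jun proteins, and the series title names Fos. The AP-1 motif stood in 1 of the 38 collagen promoters, that of Col6a1, 2.63% beside 6.75% of all 32851 promoters of the same length. The RBPJ motif, of the DNA-binding partner of Notch, stood in 2 of 38, those of Col10a1 and Col4a5, 5.26% beside 5.42%. A GC box stood in 22 of 38, 57.9% beside 32.7%, and CCAAT in 13 of 38, 34.2% beside 33.8%. None of the 4 motifs stood in the 250 bases of Col3a1, whose GC content was 35.2%, against 56% for Col6a1. A match is only a match of letters, and the array cannot tell which start site was used.

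The highest group mean of a collagen gene was 6.04. The median over the 44 genes of the mean of all 6 arrays was 4.63, beside 3.30 for all genes. Background was 3.21 for fresh and 3.30 for cultured cells, the level under which 95% of 1194 genes of olfactory and vomeronasal receptors lay on an array, averaged over the arrays of a group. Of the 44 genes, 40 had a fresh mean and 41 a cultured mean above it, and 3 had neither, namely Col4a6, Col10a1 and the FACIT gene Col12a1. A level above this background does not show that a gene was transcribed. Col2a1, the main collagen of cartilage and chosen here after its values were seen, averaged 5.06 in fresh and 4.95 in cultured cells. On the same arrays 5 of the 7 chondrocyte markers measured lay below background in both groups, among them the cartilage proteoglycan Acan at 2.86, 2.67 and 2.70 on the fresh arrays. Sox9 of the same list lay above it in both groups, at 5.64, 6.10 and 6.04 on the fresh arrays. Snorc was just above it in fresh cells only. Levels are not compared between genes, and only the difference between groups is read for each gene.

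**Figure D1:**
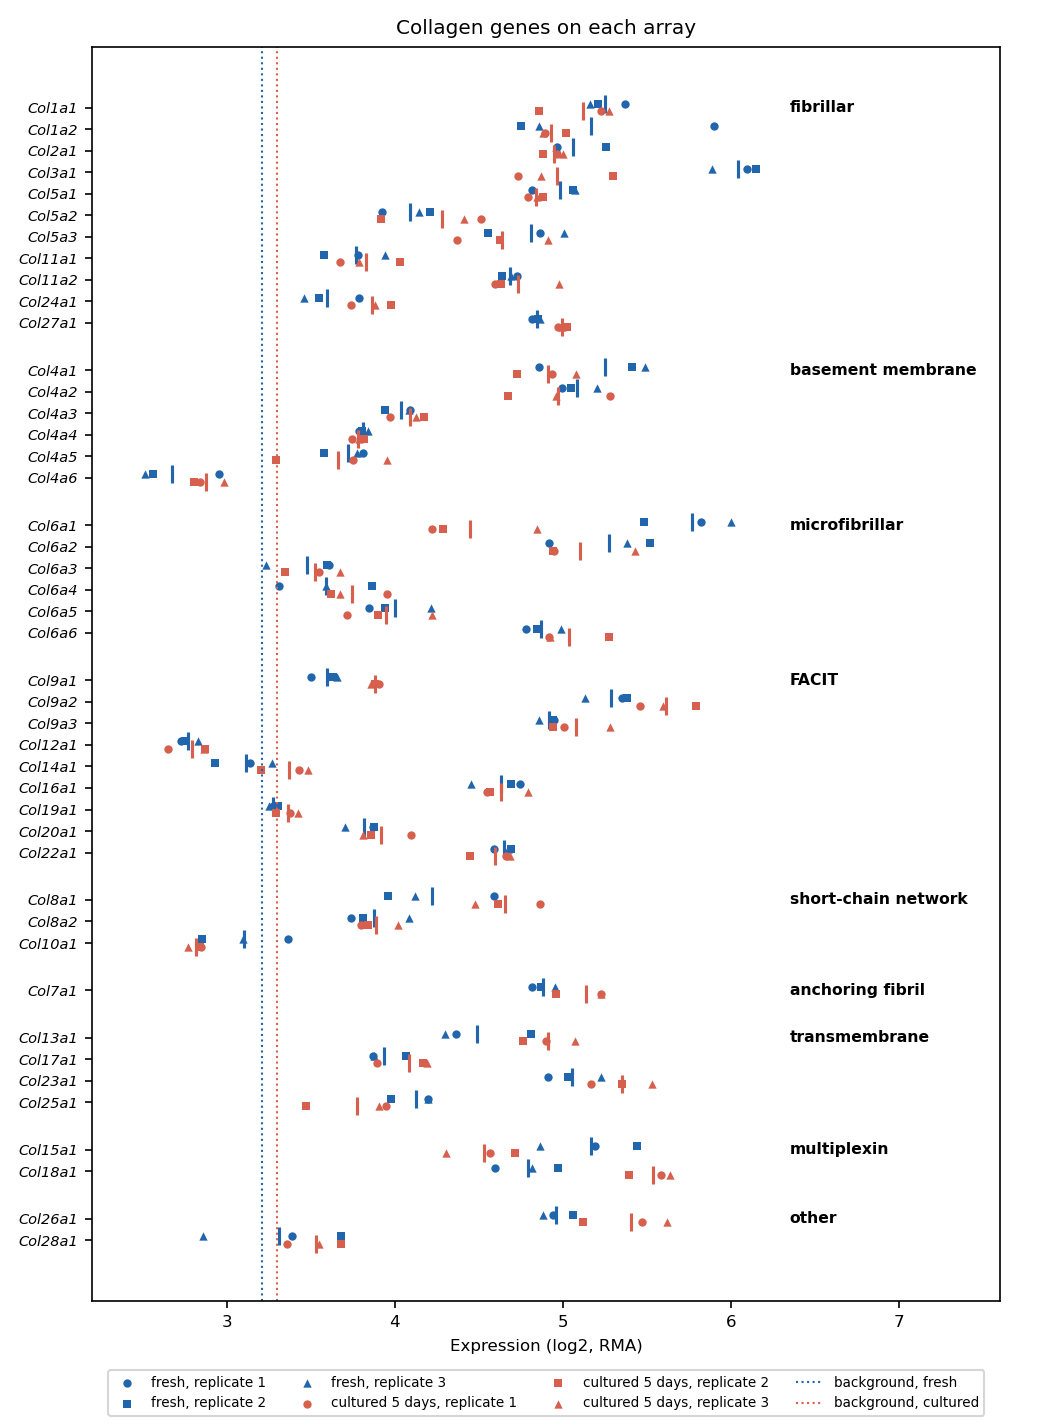
Expression of the 44 collagen genes on each array (log2, RMA), grouped by collagen type, with fresh arrays in blue and cultured arrays in red. Symbols mark replicates 1 to 3, upright bars the group means and dotted lines the background of 3.21 (fresh) and 3.30 (cultured). The fresh and cultured symbols are apart for Col6a1, Col3a1 and Col18a1, and a lone fresh symbol of Col1a2 stands at 5.90.

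The satellite cell label was checked first. Pax7, the lineage factor of satellite cells, was at 6.22, 6.66 and 6.52 on the fresh arrays, and all 10 satellite cell markers were above background there. The sort's negative markers Pecam1 (CD31), Ptprc (CD45) and Itgam (CD11b) lay below background in both groups. The list of 11 measured fibro-adipogenic markers had a mean level of 3.88 to 4.24 on the fresh and 2.92 to 2.96 on the cultured arrays, with 6 of 11 above background in fresh cells and 3 past the test, all lower in culture. The proteoglycan gene Dcn was at 8.53, 7.78 and 5.86 on fresh replicates 1, 2 and 3 and at 3.06, 2.71 and 2.85 on the cultured arrays. Dpt, which encodes a collagen-binding matrix protein, was at 7.39, 7.24 and 7.68 and then at 2.58, 2.38 and 2.30. The defining receptor Pdgfra was at 3.61, 3.23 and 3.23 on the fresh and between 3.57 and 3.67 on the cultured arrays, with a log2 difference of 0.27 (limma adjusted p 0.417). Lum, Pi16, Dpp4, Cd55 and Mfap5 of the same list were below background in both groups. Of the other lists, 1 of 9 endothelial (Tek), 1 of 6 Schwann cell (Pmp22) and 1 of 7 chondrocyte markers (Sox9) fell. None of 8 pericyte or 5 blood cell markers passed, and none of these lists had a gene that rose. The shares of all genes, beside each of these lists and the fibro-adipogenic list, were 3.37% lower and 0.953% higher.

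The list of 10 tendon cell markers had a mean level of 4.75 on fresh replicate 1, against 3.52 and 3.37 on fresh replicates 2 and 3 and 3.59 to 3.70 on the cultured arrays. Fresh replicate 1 thus stood apart. The tenocyte membrane protein gene Tnmd was at 4.86 there and at 2.57 and 2.93 on fresh replicates 2 and 3, and the matrix genes Fmod, Thbs4 and Chad were at 6.08, 6.11 and 6.78 there. Other genes of the list did not set this array apart, among them the tendon factor Scx at 5.26, 5.23 and 4.69 on the fresh arrays, with a log2 difference of 0.86 (limma adjusted p 0.0838), and the matrix gene Comp at 4.02, 4.05 and 3.90. Scx passed after quantile normalization at 1.19 (limma adjusted p 0.00453) and with cyclic loess at 1.02 (0.0088). The number of collagen genes past the test was 3 with fresh replicate 1 and 0 without it by limma. In both fits 6 of 44 had an unadjusted p under 0.05, beside 17.6% and 15.5% of all genes. The differences of Col6a1, Col3a1 and Col18a1 were -1.29, -1.05 and 0.64 without it, against -1.32, -1.08 and 0.74 with it. Leaving out fresh replicate 2, fresh replicate 3 or cultured replicate 3 each gave 1, and the count was 2 without cultured replicate 1 and 3 without cultured replicate 2. Cultured replicates 2 and 3 also stood apart, in that bright genes, those with a mean above 11, lay at a median of -3.33 and -2.87 from their fresh means, against -0.09 for cultured replicate 1. The median of the 44 collagen genes was between 4.38 and 4.60 on every array.

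Among the fibrillar collagens 1 of 11 genes fell and none rose, beside 3.37% and 0.953% of all genes. At an unadjusted p under 0.05 the counts were also 1 lower and 0 higher, beside 9.06% and 8.58% of all genes. The median difference of the fibrillar genes was -0.11, and 0.07 after a further quantile normalization. Col3a1 was at 6.10, 6.15 and 5.89 on the fresh arrays and at 4.74, 5.30 and 4.87 on the cultured arrays. All fresh values were above all cultured values. The fall of 1.08 on the log2 scale is a 2.11-fold difference, with a limma adjusted p of 0.0148. The call was lost at adjusted p of 0.0579 without fresh replicate 1, 0.0752 without fresh replicate 2 and 0.0818 without cultured replicate 3. It was also lost after quantile normalization, where the difference was -0.72 with an adjusted p of 0.188, and with cyclic loess at -0.92 with 0.0726. Col3a1 is a gene of interstitial fibroblasts, and the fibro-adipogenic markers Dcn, Dpt and Gsn fell beside it. The median difference of the 11 measured markers of that list was -0.06. The sort left out cells with Sca1, a surface marker of fibro-adipogenic cells whose gene Ly6a was not among the genes measured here. The part of such cells in the fall of Col3a1 was not tested. In RNA from many cells, fewer cells of a type and less RNA per cell cannot be told apart.

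Collagen I, the main collagen of tendon and scar, is made of the chains of Col1a1 and Col1a2. Col1a1 was at 5.37, 5.21 and 5.16 on the fresh arrays and at 5.23, 4.86 and 5.27 on the cultured arrays, and the groups overlapped. Col1a2 was at 5.90, 4.75 and 4.86 on the fresh arrays and at 4.89, 5.02 and 4.88 on the cultured arrays. Its fresh SD of 0.63 was the highest among the 44 collagen genes, whose median fresh SD was 0.15, and the high value was on fresh replicate 1. This is the array on which several tendon markers were high, and their part in the value was not tested. The limma differences were -0.13 (95% interval -0.50 to 0.24) for Col1a1 and -0.24 (-0.91 to 0.44) for Col1a2. For neither gene does the interval reach a 2-fold change.

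Collagen V regulates fibril width, and its chains are encoded by Col5a1, Col5a2 and Col5a3. Col5a1 was at 4.82, 5.06 and 5.07 in fresh and 4.79, 4.88 and 4.85 in cultured cells, with a difference of -0.14 (95% interval -0.46 to 0.17). Col5a2 was at 3.92, 4.21 and 4.14 and then at 4.51, 3.92 and 4.41, a difference of 0.19 (-0.25 to 0.63). Col5a3 was at 4.86, 4.55 and 5.01 and then at 4.37, 4.62 and 4.91, a difference of -0.17 (-0.61 to 0.27). The groups overlapped for all 3 collagen V genes. Col24a1, a fibrillar gene of developing bone, was at 3.79, 3.55 and 3.46 and then at 3.74, 3.98 and 3.88, with an adjusted p of 0.408. The remaining fibrillar genes Col2a1, Col11a1, Col11a2 and Col27a1 had differences from -0.11 to 0.15, and of these only Col27a1 had groups that did not overlap, at fresh values of 4.82 to 4.86 and cultured values of 4.97 to 5.02.

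Among the microfibrillar collagens 1 of 6 genes fell and none rose, beside 3.37% and 0.953% of all genes. The counts were the same at an unadjusted p under 0.05, beside 9.06% and 8.58% of all genes. The median difference of the 6 microfibrillar genes was -0.0039 on the log2 scale, and 0.04 after quantile normalization. Col6a1 was at 5.82, 5.48 and 6.00 on the fresh arrays and at 4.22, 4.29 and 4.84 on the cultured arrays. Each fresh value was above each cultured value. The fall was 2.49-fold, with a 95% interval of -1.82 to -0.82 on the log2 scale and a limma adjusted p of 0.0136. It kept its call after quantile normalization (-1.11, adjusted p 0.0183) and with cyclic loess (-1.24, 0.0124). It lost it without fresh replicate 1 at an adjusted p of 0.0546 and without fresh replicate 3 at 0.0711. The 3 fibro-adipogenic markers Dcn, Dpt and Gsn also fell, 3 of the 11 measured, and the part of such cells in the fall of Col6a1 was not tested.

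The collagen VI monomer joins the chains of Col6a1 and Col6a2 with 1 more, most often that of Col6a3. Col6a2 was at 4.92, 5.52 and 5.38 on the fresh arrays and at 4.95, 4.94 and 5.43 on the cultured arrays. The groups overlapped, with a difference of -0.17 (95% interval -0.66 to 0.32). Col6a3 was at 3.61, 3.59 and 3.23 and then at 3.55, 3.35 and 3.67, a difference of 0.05 (-0.33 to 0.43). Its values lay close to background. The differences of Col6a4, Col6a6 and Col6a5 were 0.16, 0.17 and -0.05. The second probe sets of Col6a5 and Col6a6, the only members with 2, lay at or below 2.95 on all 6 arrays, below background.

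The chains of a collagen were then compared within each array, for 6 pairs. A shift equal for all genes of an array cancels there. A shift that depends on level, as seen for bright genes on cultured replicates 2 and 3, need not cancel. Only the pairs with Col6a1 separated the groups. The log2 level of Col6a1 minus that of Col6a2 was 0.90, -0.03 and 0.62 in fresh cells and lay between -0.73 and -0.58 in cultured cells. The change was -1.15. Col6a3 minus Col6a1 was -2.21, -1.89 and -2.77 in fresh and -0.67, -0.94 and -1.17 in cultured cells, a change of 1.36. Both had an exact permutation p of 0.10, two-sided, the smallest that 3 against 3 arrays can give, and 0.30 adjusted over the 6 pairs, so neither pair passed. Changes for Col1a1 minus Col1a2 (0.11), Col5a1 minus Col5a2 (-0.33), Col5a3 minus Col5a1 (-0.03) and Col4a1 minus Col4a2 (-0.23) had groups that overlapped, at exact p from 0.40 to 1.00. These are differences of change, and say nothing of which chain was more abundant.

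Of the 6 basement membrane genes of collagen IV none passed the test in either direction, and none had an unadjusted p under 0.05. Their median difference was -0.04. Col4a1 and Col4a2, which encode the common chains of the network, lie head to head on opposite strands. Their RefSeq start sites cross, with -22 bases between them. For this reason their promoter windows, the bases before each start site, do not overlap. That does not show that the promoters are separate. Col4a1 was at 4.86, 5.41 and 5.49 on the fresh arrays and at 4.94, 4.72 and 5.08 on the cultured arrays. Col4a2 was at 4.99, 5.05 and 5.20 and then at 5.28, 4.67 and 4.96. The fresh and cultured values overlapped for both. The differences were -0.34 (95% interval -0.80 to 0.12) and -0.11 (-0.53 to 0.30). The difference was -0.06 for Col4a5, 0.20 for Col4a6, which lay below background, and 0.05 and -0.03 for Col4a3 and Col4a4, chains of the kidney filter.

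The multiplexins, basement membrane collagens with many interruptions and side chains of glycosaminoglycan, have 2 genes, which differed in opposite directions. Col18a1 was at 4.60, 4.97 and 4.81 on the fresh arrays and at 5.58, 5.39 and 5.63 on the cultured arrays. Every cultured value was above every fresh value. The rise was 1.67-fold with a limma adjusted p of 0.0381, and was 1.02 on the log2 scale after quantile normalization (adjusted p 0.00957) and 0.83 with cyclic loess (0.0107). The call was lost without any 1 array other than cultured replicate 2, at adjusted p of 0.106, 0.0673 and 0.124 without fresh replicates 1, 2 and 3 and 0.0522 and 0.16 without cultured replicates 1 and 3. Col15a1, the other multiplexin, was at 5.19, 5.44 and 4.87 in fresh and 4.57, 4.71 and 4.31 in cultured cells. Its groups did not overlap either, in the opposite direction, but with a difference of -0.64 (95% interval -1.08 to -0.20) it had an adjusted p of 0.123 and did not pass.

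None of the 9 FACIT genes passed in either direction, and none had an unadjusted p under 0.05. Their median difference was 0.10, and 0.02 with cyclic loess. Differences were above 0 for 8 of 9, between -0.05 and 0.33, beside a median of 0.04 over all genes. The share of all genes above 0 was not counted. With cyclic loess those of Col12a1, Col16a1 and Col22a1 were below 0, at -0.03, -0.0084 and -0.06. The groups did not overlap for 2 of 9, 22.2% beside 23.2% of all genes. These 2 FACIT genes encode chains of the cartilage collagen IX. Col9a2 was at 5.35, 5.38 and 5.13 in fresh and 5.46, 5.79 and 5.59 in cultured cells (adjusted p 0.313), and Col9a1 at 3.50, 3.63 and 3.65 and then 3.91, 3.88 and 3.86 (0.286). The third chain, Col9a3, had a difference of 0.16. Col14a1, a FACIT gene of fibroblasts in tendon and skin, was at 3.14, 2.93 and 3.27 and then at 3.43, 3.20 and 3.49, near background in both groups. Differences of Col12a1, Col16a1, Col19a1, Col20a1 and Col22a1 were between -0.05 and 0.10.

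The remaining 10 genes beside the multiplexins and the 4 types above were transmembrane, short-chain, anchoring and unclassed collagens, and none of them passed. The transmembrane gene Col13a1, whose product sits at the neuromuscular junction, was at 4.36, 4.81 and 4.30 in fresh and 4.90, 4.76 and 5.07 in cultured cells (adjusted p 0.275). Col25a1, which muscle needs for its innervation, was at 4.20, 3.98 and 4.20 and then at 3.94, 3.47 and 3.90, with no overlap and an adjusted p of 0.343. The differences of Col23a1 and the hemidesmosome gene Col17a1 were 0.29 and 0.15. The short-chain gene Col8a1 was at 4.59, 3.96 and 4.12 and then at 4.87, 4.61 and 4.48 (adjusted p 0.317). Col8a2 had a difference of 0.0095, and Col10a1, of hypertrophic cartilage, one of -0.29 below background. The differences of Col7a1, of epidermal anchoring fibrils, and Col28a1 were 0.26 and 0.22. Col26a1 was at 4.94, 5.06 and 4.88 in fresh and 5.47, 5.12 and 5.62 in cultured cells. Its difference of 0.44 had a limma adjusted p of 0.211, and 0.70 with 0.045 after quantile normalization. By that scaling 2 of the 44 collagen genes rose and 1 fell, beside 698 higher and 897 lower of all 19938 genes. With cyclic loess 1 rose and 1 fell, beside 498 higher and 1017 lower of all genes.

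Across the 41 genes that did not pass, the 95% interval of the difference lay within 2-fold in both directions for 40, the exception being Col15a1. It lay within 0.5 on the log2 scale for 18. For 3 of the 41 the interval left out 0, and these were Col15a1, Col13a1 and Col26a1. RMA compresses differences near the background, so these intervals are those of the array values and can understate changes of RNA.

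**Figure D2:**
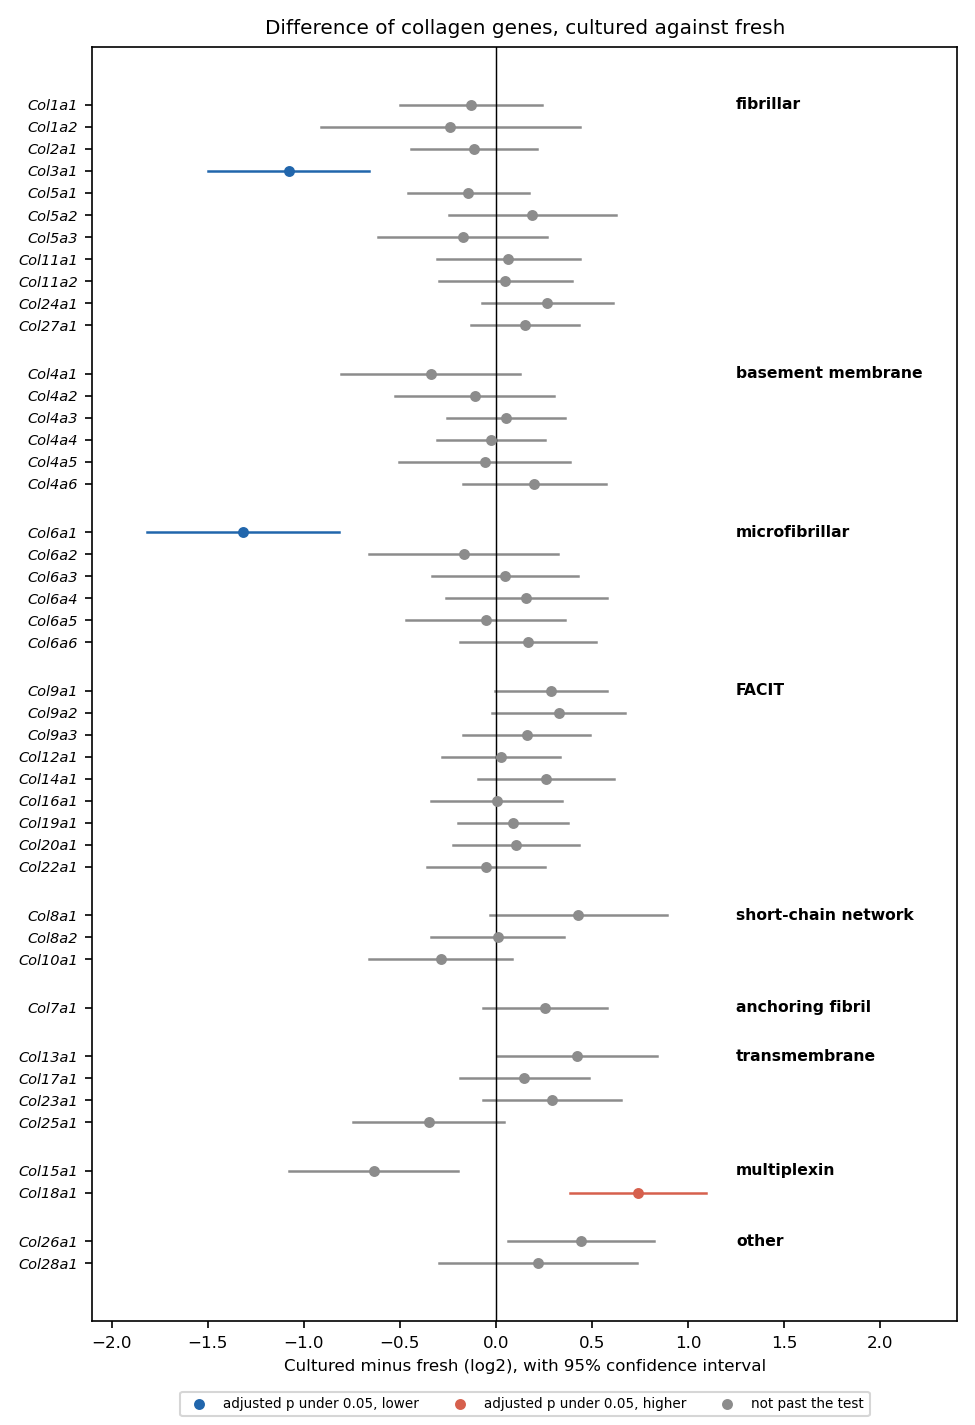
Difference between cultured and fresh cells (log2, dots) with its 95% confidence interval (lines) for the 44 collagen genes by type, from limma on 3 arrays a group. Col6a1 (-1.32) and Col3a1 (-1.08) in blue and Col18a1 (0.74) in red passed an adjusted p of 0.05, and the 41 genes in grey did not.

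Collagen chains are hydroxylated, folded and trimmed by a shared set of enzymes and chaperones, and this set was read from the same fit. Modification and folding had 21 measured genes, of which 2 fell and 0 rose, beside 3.37% and 0.953% of all genes. At an unadjusted p under 0.05 the counts were 5 lower and 0 higher, beside 9.06% and 8.58% of all genes, with a median difference of -0.12. P4ha1, which encodes a catalytic subunit of prolyl 4-hydroxylase, was at 5.76, 5.88 and 6.43 on the fresh arrays. On the cultured arrays it was at 3.76, 3.65 and 3.89. The groups were far apart, with a 4.79-fold difference of -2.26 ± 0.20 (SE) on the log2 scale and a limma adjusted p of 0.000661. The call was kept in each of the 13 other settings, at differences from -2.39 to -2.06. Serpinh1, the collagen chaperone of the endoplasmic reticulum known as HSP47, was at 7.15, 7.58 and 7.48 and then at 6.04, 5.92 and 5.38. Its fall was 3.08-fold with an adjusted p of 0.00476, and -0.97 with 0.0638 after quantile normalization. Other subunit genes of prolyl 4-hydroxylase were named after their values were seen. As log2 differences, P4hb was at -1.26 (limma adjusted p 0.118) and P4ha2 at -0.79 (0.211). P4ha3, below background in both groups, was at -0.15 (0.653). P4ha1 is also known as a hypoxia gene and Serpinh1 as a heat shock gene.

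Procollagen processing and cross-linking had 12 measured genes, of which 1 fell and 0 rose, beside the same 3.37% and 0.953%. At an unadjusted p under 0.05 the counts were 3 lower and 1 higher, beside 9.06% and 8.58%. Lox, the lysyl oxidase that starts collagen cross-links, was at 3.43, 3.65 and 2.99 in fresh and 2.31, 2.45 and 2.52 in cultured cells, with a difference of -0.93 and an adjusted p of 0.0369. Its fresh mean of 3.36 was only just above background and its cultured mean below, and the call was lost without fresh replicates 1 or 2 or cultured replicates 2 or 3, at up to 0.122. Its relative Loxl1, named after its values were seen, was at 4.79, 4.82 and 5.01 and then at 4.12, 3.44 and 4.19, a difference of -0.96 with an adjusted p of 0.0518. It passed after quantile normalization at 0.0172 and with cyclic loess at 0.00822. The median difference of this list was 0.13.

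Of 13 measured collagen receptors 1 fell and none rose, beside 3.37% and 0.953% of all genes. The counts were the same at an unadjusted p under 0.05, beside 9.06% and 8.58%, and the median difference was -0.25. Calcr, the calcitonin receptor bound by collagen V, was at 4.88, 5.64 and 6.19 on the fresh arrays and at 3.19, 4.001 and 3.32 in cultured cells, with no overlap. The log2 difference was -2.07 ± 0.35 (limma adjusted p 0.0154). Without fresh replicate 2 the adjusted p was 0.0769, without fresh replicate 3 it was 0.0548 and without cultured replicate 3 it was 0.0846. Calcr is also one of the satellite cell markers, of which 7 of 10 fell, beside 3.37% of all genes. The collagen V genes themselves, given above, did not pass. The integrin and discoidin receptor genes Itga1, Itga2, Itga10, Itga11, Itgb1, Ddr1 and Ddr2 did not pass, with differences from -0.55 to 0.20.

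**Figure D3:**
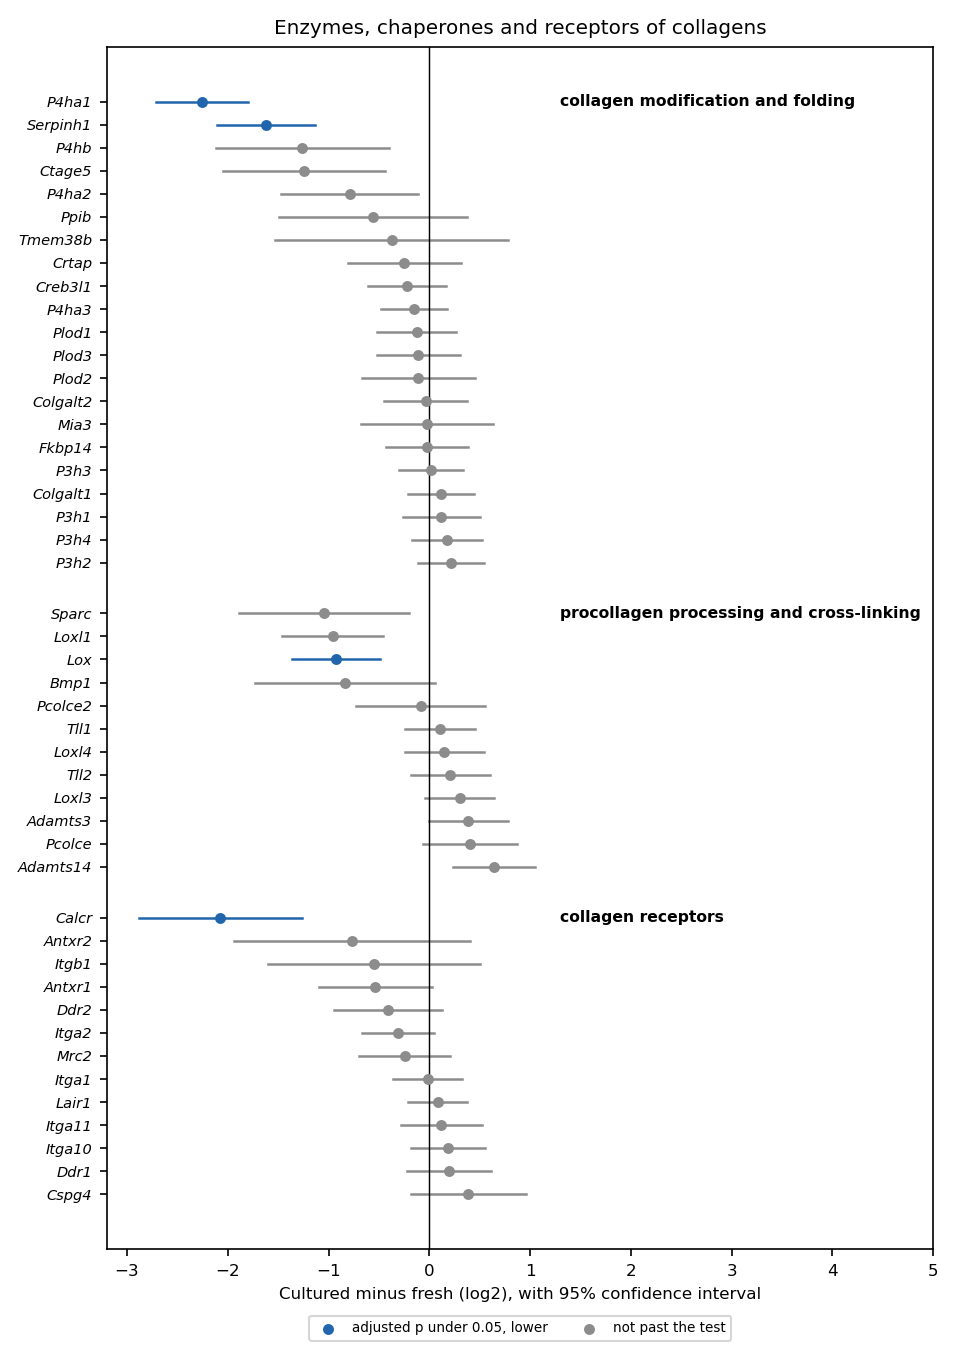
Difference between cultured and fresh cells (log2, dots) with its 95% confidence interval (lines) for genes of collagen modification and folding (21), procollagen processing and cross-linking (12) and collagen receptors (13). P4ha1 (-2.26), Serpinh1 (-1.62), Lox (-0.93) and Calcr (-2.07), in blue, passed an adjusted p of 0.05.

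**Figure D4:**
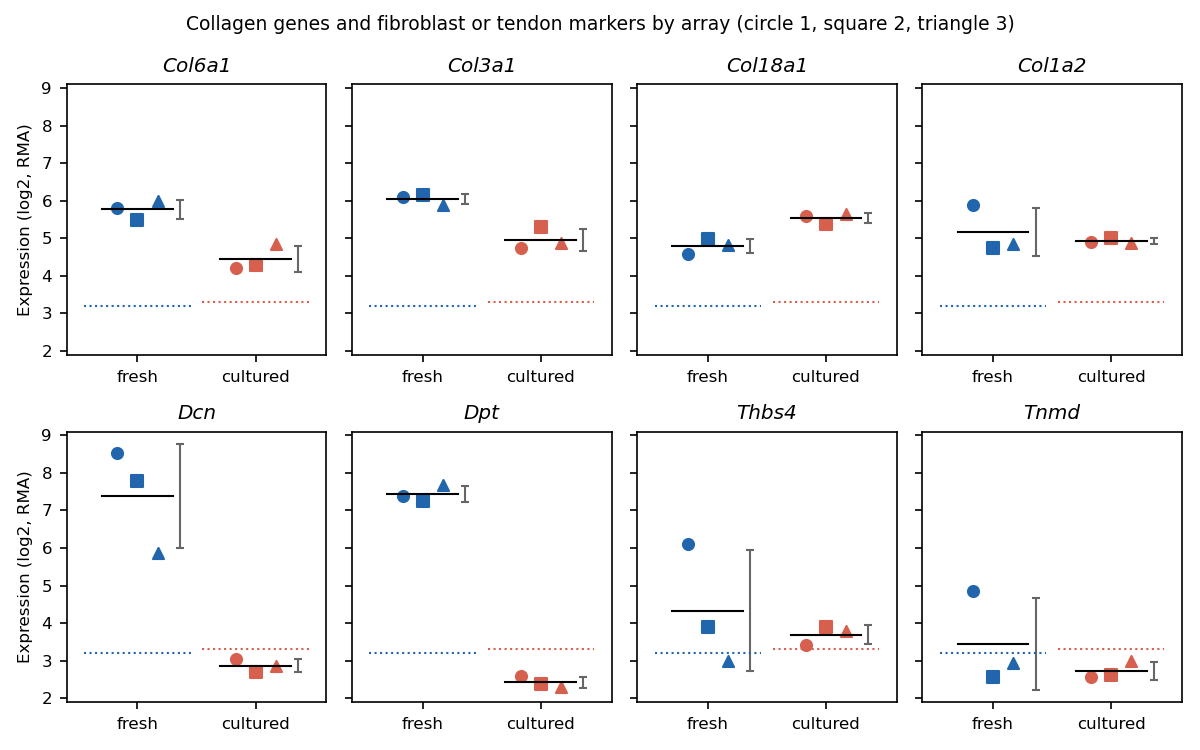
Expression (log2, RMA) of 4 collagen genes and of 2 fibro-adipogenic (Dcn, Dpt) and 2 tendon (Thbs4, Tnmd) markers on the fresh (blue) and cultured (red) arrays. The markers drawn do not stand for their lists. Of 11 measured fibro-adipogenic markers 3 fell, beside 3.37% of all genes, and Pdgfra differed by 0.27. The tendon markers Scx and Comp did not set fresh replicate 1 apart. Symbols are replicates, black lines group means, grey bars 1 SD either side and dotted lines background. Col1a2 is at 5.90 on fresh replicate 1, where Thbs4 is at 6.11 and Tnmd at 4.86, while Col6a1 and Col3a1 are higher on all 3 fresh than on all 3 cultured arrays.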

How the data were processed

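Gene expression was measured on 6 Affymetrix arrays, labelled with a whole-transcript kit per the labels' protocols. The authors deposited log2 values for 35556 probe sets. RMA and the package oligo are named in the submitters' processing notes, with no version. No source used here gives the genome build of the probe sets.

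Of the 35556 probe sets, 21789 had 1 gene in the platform annotation, 1621 had several and were not named, and 12146 had none listed. The test was limma 3.58.1 in R 4.3.3, group as the only term, over all 19938 genes with no filter on dim genes, with a threshold of an adjusted p of 0.05. Named are the collagen genes past the test, the 4 of each type with the largest difference, both chains of each pair and the list members past the test, with additions where stated. The members, lists and tests were chosen with earlier results of these data known. The number of arrays limits the precision. Arrays of one group were no copies of each other (Pearson r over genes 0.948 to 0.974). The code was tested on simulated data. Other settings were a replicate block, leaving out each array, quantile normalization, cyclic loess, a filter on dim genes, a trended and robust prior, array weights and the mean of all probe sets.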

Additional observations from a re-analysis of the deposited data

How the results depend on the processing

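The signs of the differences of Col6a1, Col3a1 and Col18a1 were kept in all 13 other settings. The calls were kept in 11, 8 and 6 of them. Of the 44 collagen genes, 17 had a difference whose sign turned in at least 1 setting, all of them not past the test in the main setting, and none was past the test with the turned sign. Col15a1 passed with array weights, at -0.74 with an adjusted p of 0.0419. Leaving out 1 array gave 0 to 3 collagen genes and 448 to 1517 genes past the test. Over all genes the count of 861 became 1595 after quantile normalization, 1515 with cyclic loess and 1742 with array weights, and the share of higher calls, 22.1%, became 43.8%, 32.9% and 33.6%. With the replicate number as a block 662 genes and 2 collagen genes passed, Col18a1 being lost at an adjusted p of 0.106, and Lox was lost at 0.0792. Same-numbered arrays did not deviate together (correlations of -0.09, -0.14 and 0.03), so the numbers were not taken as pairs. With the trended and robust prior Col18a1 was lost at 0.101. None of the 48 other values of the chain pairs moved by more than the spread between arrays.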
